A study of Mus musculus with 10 samples.

Results

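Oxidative phosphorylation (OXPHOS) subunits encoded in the nucleus were described across 4 groups of sorted mast cells. The members are the gene symbols of the Nduf, Sdh, Uqcr, Cyc1, Cox and Atp5 families chosen by symbol, with at least 50 counts summed over the 10 libraries. Of 83 matching symbols 75 reached that minimum, out of 22815 symbols in the table. They comprise 35 genes of complex I, 4 of complex II, 9 of complex III, 10 of complex IV and 17 of complex V.

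Complex I (NADH dehydrogenase) and complex II (succinate dehydrogenase) pass electrons to ubiquinone. Complex III hands them to cytochrome c, and complex IV passes them to oxygen. Complexes I, III and IV pump protons across the inner mitochondrial membrane, and complex V, the ATP synthase, uses the gradient to make ATP. Each complex other than complex II also holds subunits encoded by mitochondrial DNA, which were not analysed here.

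The mast cells came from the lower airway of wild-type C57BL/6 mice aged 5 to 7 weeks. Each mouse was challenged intranasally with 20 µL of saline, or with the same volume holding 3 µg of house dust mite extract (HDM), an allergen preparation. The HDM was given 2 times a week for 3 weeks. The sorted populations are labelled B7hi and B7low, which the series title calls inducible and constitutive mast cells; in published usage B7 stands for integrin β7. Each population had 2 libraries after saline and 3 after HDM. Whether a library is 1 mouse or a pool is not in the labels, so p-values rest on the library-to-library spread alone, which may be technical. In bulk RNA, fewer cells of a kind and less RNA per cell cannot be told apart.

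Library totals ran from 525983 (B7hi HDM 2) to 1725818 counts (B7hi saline 2), and both B7low saline libraries were shallow, at 652736 and 639906. The members held 0.395% to 0.774% of each library's counts. All 8 mast cell markers examined were detected in every library, with a summed level of 13600 to 30650 CPM (counts scaled to a common library total) in B7hi and 48370 to 93620 CPM in B7low. The granule chymase gene Cma1 accounted for much of that span, from 1610 to 34300 CPM. Basophil markers, several of which mast cells share, summed to 2056 to 3762 CPM, but single genes differed in opposite directions. Mcpt8 was at 691 to 1550 CPM in B7hi and 57.7 to 383 CPM in B7low, and Ifitm1 was also higher in B7hi. Prss34 was at 2.27 to 48.1 CPM in B7hi and 390 to 549 CPM in B7low, and Cd200r3 was also lower in B7hi. Lymphocyte markers were uneven. The 6 B cell markers summed to 79.6 to 595 CPM in B7low HDM against 5.63 to 68.9 CPM in the other 3 groups. The 8 T and NK cell markers in the table summed to 150 to 542 CPM in B7hi and 49.0 to 227 CPM in B7low, most of it Nkg7. The macrophage genes C1qa and C1qb, the neutrophil gene S100a8 and the eosinophil genes Prg2 and Epx were at 0 counts in every library. Other genes of those lists were present, with Siglec5, Ccr3 and Il5ra detected in every library. The macrophage and monocyte markers summed to 16.3 to 41.1 CPM, the eosinophil markers to 8.13 to 120 CPM and the neutrophil markers to 0 to 6.69 CPM. Epithelial markers summed to 10.5 to 188 CPM. Endothelial markers summed to 59.4 to 502 CPM, highest in B7low HDM 1, where Cldn5 was at 165 CPM. The part of these markers in the results was not tested.

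Promoter sequences are shown for 4 of the members that the population comparison called, chosen because their windows hold letters matching motifs of regulators linked to mitochondrial genes or to cyclic AMP. RefSeq start sites on GRCm38.p6 gave windows of 300 bases, from 250 bases before the start to 50 after, for 61 of the 75 members. Both strands were searched for 5 motifs: GCGCANGCG for NRF1, CCGGAAG for ETS factors, AANATGGCG for YY1, TGACGTCA for the cyclic AMP response element (CRE) and CCAAT for the CCAAT box. Capitals mark the matches, on either strand, which do not overlap in the windows printed. Each sequence runs 5′ to 3′ on the strand of its gene.
Ndufa10, chr1:92473709-92474008, minus strand: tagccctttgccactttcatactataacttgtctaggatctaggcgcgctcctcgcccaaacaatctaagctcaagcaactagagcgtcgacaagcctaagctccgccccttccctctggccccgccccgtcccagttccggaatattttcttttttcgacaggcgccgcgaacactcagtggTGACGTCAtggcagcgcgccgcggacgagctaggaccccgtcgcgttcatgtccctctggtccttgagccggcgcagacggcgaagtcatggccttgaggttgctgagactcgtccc
Ndufa6, chr15:82354242-82354541, minus strand: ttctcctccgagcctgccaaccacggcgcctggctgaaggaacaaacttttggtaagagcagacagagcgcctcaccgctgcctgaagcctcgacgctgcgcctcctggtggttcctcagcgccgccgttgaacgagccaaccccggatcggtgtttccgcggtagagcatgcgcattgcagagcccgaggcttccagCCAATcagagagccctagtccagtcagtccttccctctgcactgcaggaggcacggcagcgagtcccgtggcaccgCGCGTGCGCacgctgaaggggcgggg
Atp5b, chr10:128083057-128083356, plus strand: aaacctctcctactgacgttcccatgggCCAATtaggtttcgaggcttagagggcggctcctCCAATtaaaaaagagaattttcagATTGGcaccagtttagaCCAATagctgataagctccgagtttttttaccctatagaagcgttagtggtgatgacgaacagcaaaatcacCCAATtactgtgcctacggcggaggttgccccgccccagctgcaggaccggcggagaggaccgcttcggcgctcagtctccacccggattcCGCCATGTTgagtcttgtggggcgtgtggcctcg
Atp5g3, chr2:73911277-73911576, minus strand: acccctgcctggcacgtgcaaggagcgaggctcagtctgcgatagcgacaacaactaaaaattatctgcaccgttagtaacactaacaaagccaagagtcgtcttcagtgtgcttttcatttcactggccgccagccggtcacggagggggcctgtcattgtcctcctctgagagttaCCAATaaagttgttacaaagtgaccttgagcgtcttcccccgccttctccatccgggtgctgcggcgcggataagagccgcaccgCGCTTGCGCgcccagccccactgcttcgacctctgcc

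The Ndufa10 window holds the CRE letters at bases 184 to 191, counted from 1 at its 5′ end. NRF1 letters lie at bases 275 to 283 for Ndufa6 and 264 to 272 for Atp5g3, each with 1 CCAAT further upstream. The Atp5b window has 5 CCAAT matches and YY1 letters at bases 267 to 275. Of the 8 called members with a window, NRF1 letters were found in 2, YY1 in 1, the CRE in 1, ETS in 0 and CCAAT in 4. The windows of Atp5d, Cox5a and Ndufb5, which are not printed, hold 0 matches to any of the 5 motifs, and that of Ndufc2 holds CCAAT only. Over all members with a window, NRF1 letters were found in 19 of 61 (31.1%), against 7.03% of 27025 gene symbols with a window and 16.3% of the 8052 that were also tested for expression. YY1 letters were in 10 members (16.4%, against 2.76% and 6.67%) and the CRE in 4 (6.56%, against 2.03% and 3.8%). ETS letters were in 16 members (26.2%, against 9.93% and 21.5%), whereas CCAAT was about as common in members (42.6%) as in all windows (41.1%). Members with NRF1 letters and those without had the same median log2 fold change between the populations, 0.47. With and without YY1 letters the medians were 0.66 and 0.46. A match describes letters in a window and shows no binding.

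The first question was whether the 2 populations differ in these genes. Subunit mRNA was modestly higher in B7hi mast cells, in all 5 complexes. Levels are CPM of the library size scaled by TMM, a normalization that trims extreme genes. Summed over the 75 members, B7hi saline libraries had 6478 and 6589 CPM and B7low saline libraries 4513 and 4313 CPM. With HDM the sums were 6319, 5517 and 7526 CPM in B7hi and 4461, 5833 and 4224 CPM in B7low. The saline groups did not overlap, while B7low HDM 2 lay above B7hi HDM 2. The mean of the 5 B7hi libraries was 1.39 times that of the 5 B7low libraries, 1.48 times with saline and 1.33 times with HDM.

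Complex V, which makes the ATP, had the largest summed CPM. These sums take no account of transcript length, so they rank the complexes by reads and not by mRNA molecules. Its summed level was 2591 and 2634 CPM in B7hi saline, 1586 and 1624 CPM in B7low saline, 2434, 2219 and 3036 CPM in B7hi HDM, and 1677, 2348 and 1683 CPM in B7low HDM. Complex I followed, with 1376 to 1938 CPM in B7hi and 1070 to 1573 CPM in B7low. The ratio of B7hi to B7low was 1.45 for complexes IV and V, 1.35 for III, 1.33 for I and 1.29 for II. For complexes III and IV every B7hi library lay above every B7low library. In complexes I, II and V the library B7low HDM 2 reached above at least B7hi HDM 2.

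**Figure D1:**
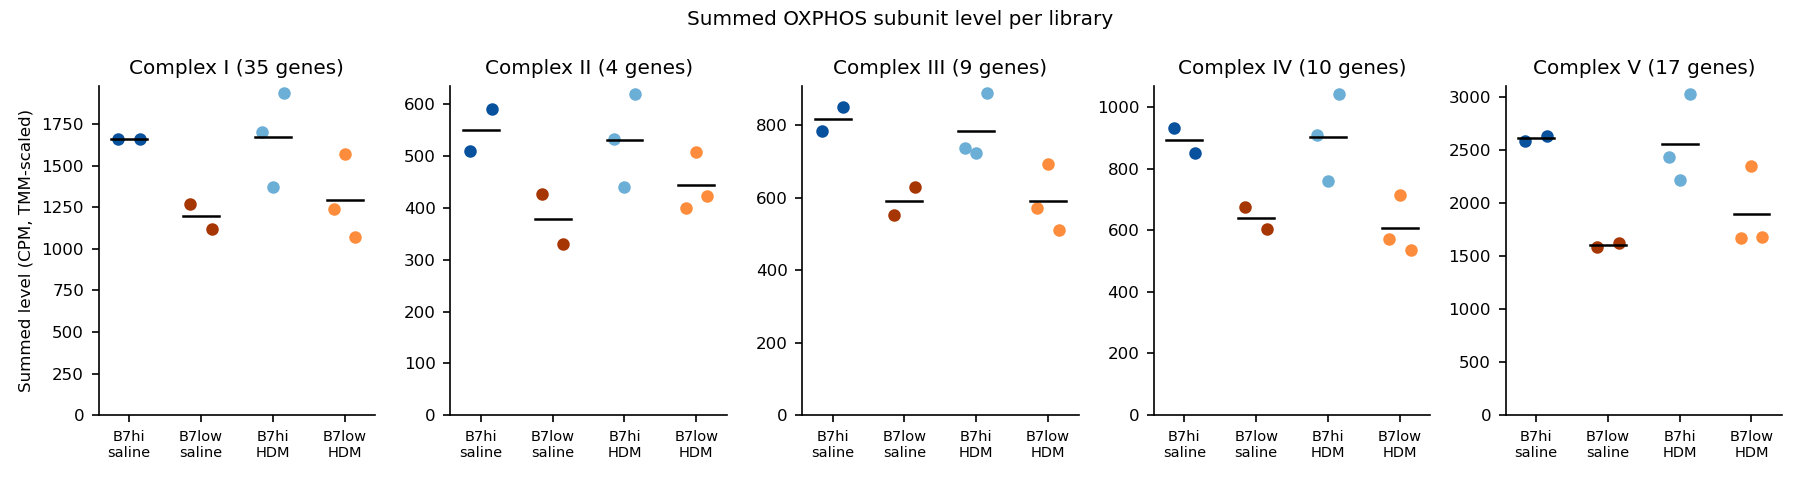
Summed CPM of the members of each complex (vertical axis, from 0) in each library (points), by group (horizontal axis), with black bars at group means. B7hi points sit above B7low points with saline in every panel, and 1 B7low HDM library lies near the B7hi HDM range.

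The balance between complexes was nearly the same in all libraries. Complex V made up 35.1% to 40.3% of the members' summed CPM and complex I 24.9% to 28.2%. Complex IV took 12.2% to 15%, complex III 11.7% to 14.6% and complex II 7.70% to 10%. These shares averaged 39.8% ± 0.74 (SD, n = 5) in B7hi and 38.1% ± 2.06 (SD, n = 5) in B7low for complex V, and 25.7% ± 0.80 and 26.9% ± 1.21 for complex I.

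Gene by gene, 74 members could be tested with edgeR's quasi-likelihood test. Cox7c, with 58 counts, did not pass the count filter. A gene is called here at an adjusted p (Benjamini-Hochberg over 10533 genes) under 0.05. In the population contrast averaged over saline and HDM, 9 of the 74 members (12.2%) were higher in B7hi and 0 were lower. Over all tested genes 5.80% were called higher and 6.08% lower. The members' median log2 fold change was 0.47 (1.39-fold), against 0.03 for all tested genes, and 69 of 74 were positive, against 51.8% of all genes. At an unadjusted p under 0.05 the counts were 27 higher and 1 lower, against 13.6% and 12.1% of tested genes. Ranges of the 5 B7hi and 5 B7low libraries did not overlap in 7 members (9.46%), all higher in B7hi, against 4.46% of tested genes higher and 4.94% lower.

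**Figure D2:**
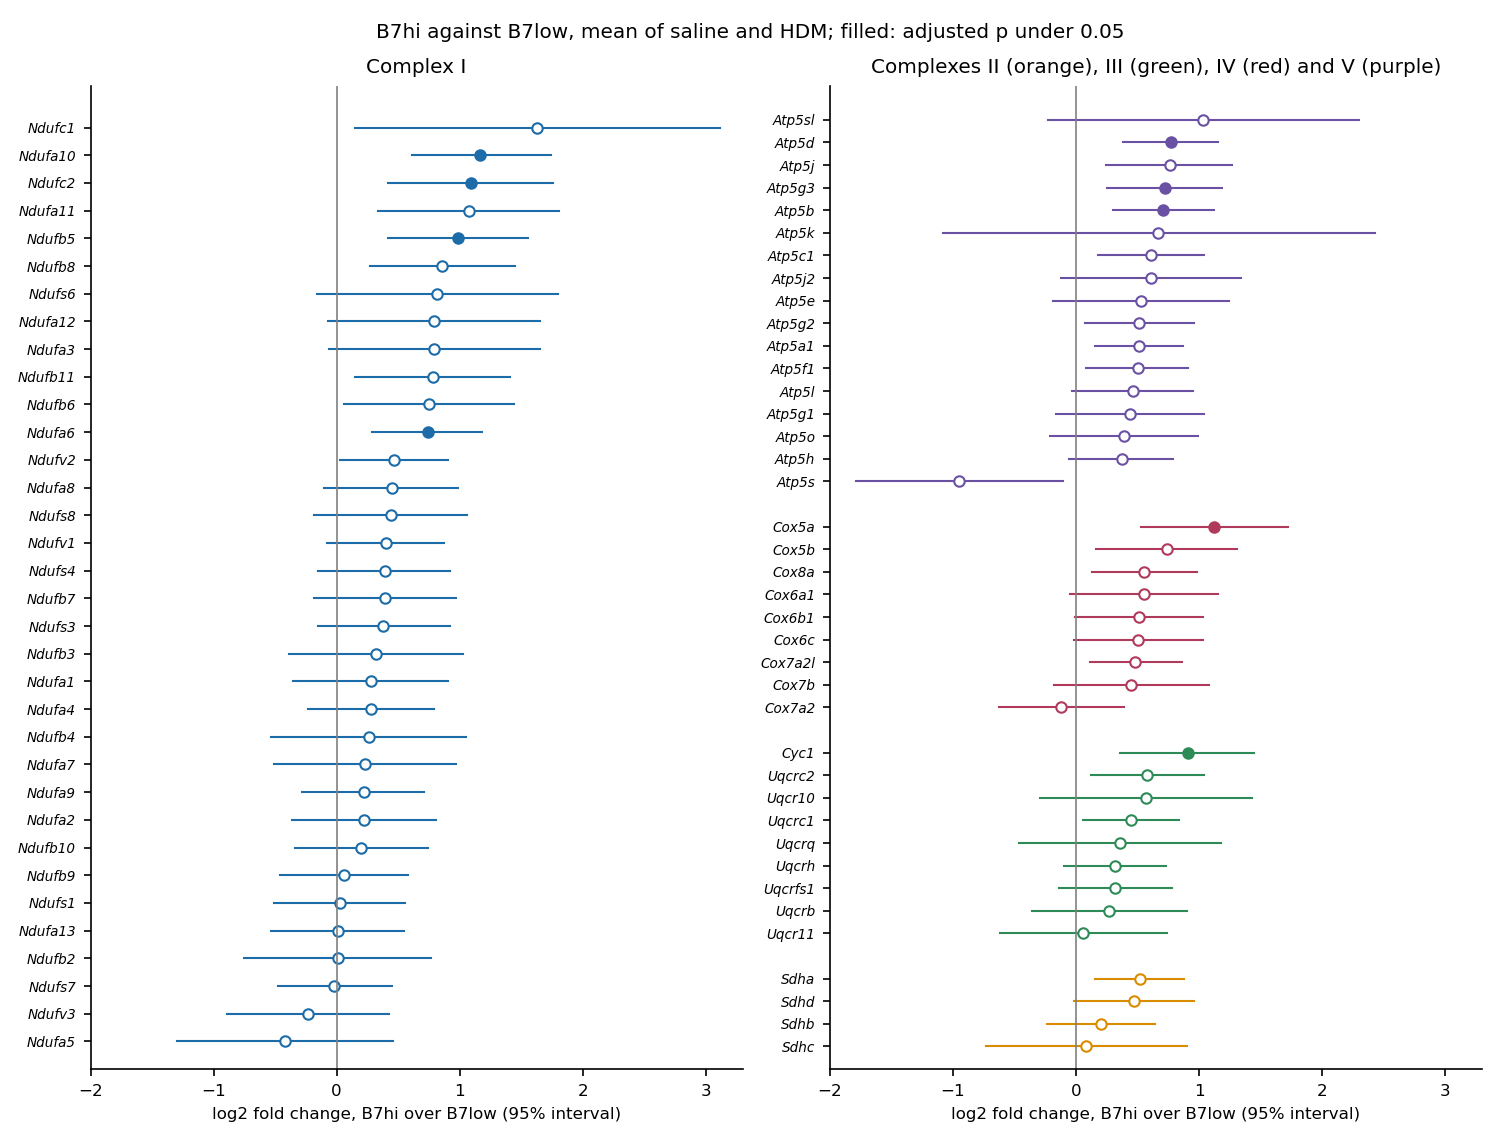
Fitted log2 fold change of B7hi over B7low, averaged over saline and HDM (horizontal axis), with its 95% interval for the tested members shown (rows), by complex. Filled points mark the 9 members called by edgeR. Most points lie right of 0, with a median of 0.47.

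Complex I held 4 of the 9 calls, all in accessory subunits, which surround the catalytic core. Ndufa10 was at 79.3 and 89.8 CPM in B7hi saline, 38.5 and 21.7 CPM in B7low saline, 88.8, 58.7 and 97.3 CPM in B7hi HDM, and 40.7, 63.7 and 32.2 CPM in B7low HDM. The groups separated with saline, and 1 B7low HDM library lay above the lowest B7hi HDM library. Its log2 fold change was 1.17 ± 0.27 (SE), a 2.26-fold difference with a 95% interval of 1.52 to 3.34 (edgeR adjusted p = 0.0086). The gene lies at chr1:92439010-92473860 on the minus strand (GRCm38, GENCODE M21).

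Ndufb5, an accessory subunit of the membrane arm at chr3:32736990-32751566 on the plus strand, had 59.0 and 51.2 CPM in B7hi saline and 19.2 and 18.4 CPM in B7low saline. With HDM it had 49.4, 52.8 and 63.7 CPM in B7hi and 31.2, 57.2 and 33.5 CPM in B7low. The saline groups stood well apart, and B7low HDM 2 fell within the B7hi range. The log2 fold change was 0.99 ± 0.27 (edgeR adjusted p = 0.025). Exons of Mrpl47, a mitochondrial ribosome gene, overlap Ndufb5 on the opposite strand, and the use of strand in counting is not given in the sources used here.

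Ndufa6, at chr15:82350140-82354322 on the minus strand, had 104 and 92.9 CPM in B7hi saline, 47.2 and 65.2 CPM in B7low saline, 120, 95.9 and 93.8 CPM in B7hi HDM, and 65.1, 77.4 and 52.5 CPM in B7low HDM. All 5 B7hi libraries exceeded all 5 B7low libraries. B7hi exceeded B7low by a log2 fold change of 0.74 ± 0.21 (edgeR adjusted p = 0.031).

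Ndufc2, at chr7:97400003-97407802 on the plus strand, had 51.4 and 28.7 CPM in B7hi saline, 14.0 and 13.4 CPM in B7low saline, 31.2, 35.2 and 50 CPM in B7hi HDM, and 23.0, 20.8 and 30.3 CPM in B7low HDM. Groups were apart within each challenge, although the highest B7low HDM library passed the lowest B7hi saline library. Its log2 fold change was 1.09 ± 0.32 (edgeR adjusted p = 0.033).

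In the catalytic core of complex I 0 genes were called. It comprises the 7 nuclear-encoded core subunits of the matrix arm, the part that holds the flavin and the iron-sulfur clusters. Of these 6 were positive, with a median of 0.40. Of the 27 accessory subunits 25 were positive, with a median of 0.39. Ndufs7, which carries the last iron-sulfur cluster of the chain, was at −0.02 ± 0.22, with 37.0 and 50.1 CPM in B7hi saline, 47.2 and 50.2 CPM in B7low saline, 61.2, 56.8 and 63.7 CPM in B7hi HDM, and 54.2, 63.1 and 50.5 CPM in B7low HDM. Its groups overlapped, and the 95% interval of −0.48 to 0.45 bounds the difference. Ndufs1, the large iron-sulfur subunit, was at 0.03 ± 0.25, and Ndufv1, the NADH-binding subunit, at 0.40 ± 0.23. Accessory subunits with estimates below 0 were Ndufa5 (−0.42 ± 0.42) and Ndufv3 (−0.23 ± 0.31), neither called.

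Ndufc1, a small accessory subunit with only 103 counts, showed the widest interval in complex I. It had 11 and 22 counts in B7hi saline and 0 and 1 count in B7low saline, and 17, 3 and 13 counts in B7hi HDM against 8, 10 and 18 in B7low HDM. The saline groups separated and the HDM groups overlapped. The averaged log2 fold change was 1.63 ± 0.70 (adjusted p = 0.15).

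No complex II gene was called. Sdha, the flavoprotein that oxidizes succinate, had 281 and 333 CPM in B7hi saline, 212 and 171 CPM in B7low saline, 306, 251 and 293 CPM in B7hi HDM, and 192, 244 and 233 CPM in B7low HDM. Every B7hi library lay above every B7low library, with a log2 fold change of 0.52 ± 0.17 (edgeR adjusted p = 0.063). Sdhb, the iron-sulfur subunit, was at 0.20 ± 0.21, and the membrane anchor Sdhc at 0.08 ± 0.39. The other anchor, Sdhd, was at 0.47 ± 0.23.

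In complex III, Cyc1, which encodes cytochrome c1, was the 1 call among 9 genes. It had 72.5 and 109 CPM in B7hi saline, 26.2 and 46.8 CPM in B7low saline, 100, 90 and 129 CPM in B7hi HDM, and 66.4, 104 and 55.0 CPM in B7low HDM. The saline groups were apart and B7low HDM 2 lay within the B7hi range. Its log2 fold change was 0.91 ± 0.26 (edgeR adjusted p = 0.030), and the gene lies at chr15:76343523-76346260 on the plus strand. The other electron carrier, the Rieske protein gene Uqcrfs1, was at 0.32 ± 0.22. All 9 estimates were positive, from 0.06 (Uqcr11) to 0.91.

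Complex IV had 1 call, Cox5a, a structural subunit of cytochrome c oxidase at chr9:57521274-57532426 on the plus strand. Its levels were 93.0 and 98.7 CPM in B7hi saline, 33.2 and 35.1 CPM in B7low saline, 75, 64.6 and 118 CPM in B7hi HDM, and 36.6, 80.0 and 35.4 CPM in B7low HDM. Again the saline groups were clearly separate and B7low HDM 2 fell among the B7hi libraries. The log2 fold change was 1.12 ± 0.28, or 2.18-fold with a 95% interval of 1.45 to 3.28 (edgeR adjusted p = 0.015). Of the 25-base stretches of Cox5a transcripts, 52.5% also occur in other genes, and Gm26631 overlaps it on the opposite strand, so the count is uncertain in its source.

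The remaining complex IV genes were not called. Cox5b, a zinc-binding subunit, was at 0.74 ± 0.27 (adjusted p = 0.094), and Cox8a at 0.55 ± 0.20 (adjusted p = 0.084). Cox7a2l, a factor linked to the joining of complexes III and IV into supercomplexes, was at 0.48 ± 0.18 (adjusted p = 0.089). Its B7hi and B7low ranges did not overlap. Its relative Cox7a2 was at −0.12 ± 0.24, with a 95% interval of −0.63 to 0.39, the 1 complex IV estimate below 0.

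In complex V, 3 of 17 genes were called. Atp5d, the δ subunit of the rotating stalk, had 169 and 148 CPM in B7hi saline, 97.9 and 75.2 CPM in B7low saline, 178, 160 and 162 CPM in B7hi HDM, and 93.5, 117 and 106 CPM in B7low HDM. All B7hi libraries lay above all B7low libraries, with a gap from 117 to 148 CPM. The log2 fold change was 0.77 ± 0.18, or 1.70-fold with a 95% interval of 1.30 to 2.22 (edgeR adjusted p = 0.011). It lies at chr10:80138632-80145818 on the plus strand, with Cbarp on the opposite strand.

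Atp5b, the catalytic β subunit at chr10:128083273-128090391 on the plus strand, was the highest member by counts. It had 564 and 723 CPM in B7hi saline, 306 and 344 CPM in B7low saline, 509, 474 and 732 CPM in B7hi HDM, and 343, 540 and 385 CPM in B7low HDM. With saline the groups stood apart, and with HDM B7low library 2 lay above the lower pair of B7hi libraries. The log2 fold change was 0.71 ± 0.20 (edgeR adjusted p = 0.026).

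Atp5g3 encodes the same mature c subunit of the membrane ring as Atp5g1 and Atp5g2. It had 89.2 and 97.1 CPM in B7hi saline, 49.0 and 60.2 CPM in B7low saline, 73.1, 78.3 and 122 CPM in B7hi HDM, and 56.9, 67.6 and 48.0 CPM in B7low HDM. No B7low library reached a B7hi library. The log2 fold change was 0.72 ± 0.22 (edgeR adjusted p = 0.046), against 0.51 ± 0.21 for Atp5g2 and 0.44 ± 0.28 for Atp5g1, neither of them called. Differences between these 3 genes were not tested. Atp5g3 lies at chr2:73908447-73911326 on the minus strand.

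The other F1 genes had positive estimates short of the threshold, among them the catalytic-ring gene Atp5a1 (0.51 ± 0.17, adjusted p = 0.065) and the central stalk gene Atp5c1 (0.61 ± 0.20, adjusted p = 0.060). Atp5s, named with the family but not a subunit of the synthase core, was the member with the lowest estimate, at −0.95 ± 0.40 (edgeR adjusted p = 0.14). It had 23.4 and 11.5 CPM in B7hi saline, 21.0 and 41.8 CPM in B7low saline, 8.75, 5.87 and 9.59 CPM in B7hi HDM, and 14.9, 24.7 and 12 CPM in B7low HDM. The HDM groups did not overlap and the saline groups did.

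**Figure D3:**
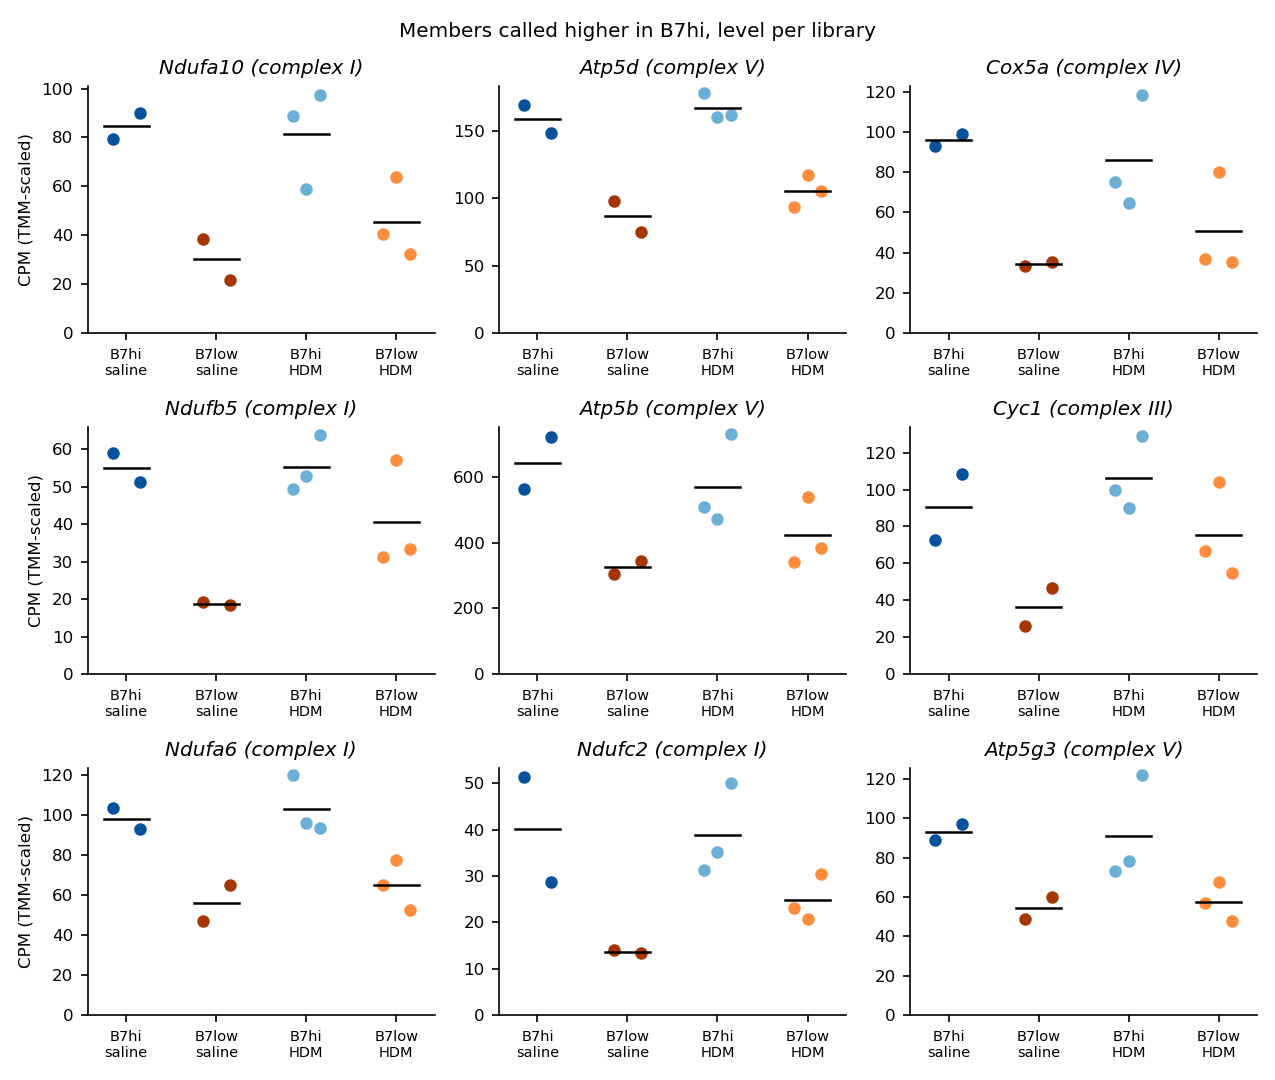
CPM per library (points, vertical axis from 0) of the 9 members called in the averaged population contrast, by group (horizontal axis), with black bars at group means. Atp5d, Ndufa6 and Atp5g3 have B7hi and B7low libraries that do not overlap; in the other 6 genes at least 1 B7low library reaches into the B7hi range.

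Calls of single genes depended on single libraries. Of the 9, Ndufa10 and Cox5a were called in all 18 alternative analyses of this contrast, with a highest adjusted p of 0.041 and 0.047. Atp5d was called in 16, and lost its call without B7hi saline 1 (adjusted p = 0.075) and without both B7low saline 2 and B7hi HDM 2. Cyc1 was called in 12, Atp5b in 11, Ndufa6 in 10, Ndufb5 in 9, Ndufc2 in 8 and Atp5g3 in 4. Their highest adjusted p came without B7hi saline 2 for Cyc1 (0.15), Atp5b (0.12) and Atp5g3 (0.15), and without B7hi saline 1 for Ndufa6 (0.13), Ndufb5 (0.11) and Ndufc2 (0.21). The number of members called higher fell from 9 to 3 without B7hi saline 1 or without B7low HDM 1, and to 4 without B7hi saline 2, B7low saline 1, B7hi HDM 3 or B7low HDM 3. It was 7 without B7low saline 2 and 11 without B7low HDM 2. Over all tested genes the number called higher also moved, from 611 of 10533 to 281 of 11678 without B7hi saline 1. Without B7low HDM 1 it was 441 of 10433, and without B7low HDM 2 531 of 10075. The members' median stayed between 0.40 and 0.54 whichever library was left out.

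Within saline alone, 2 members were called higher in B7hi and 0 lower, against 2.91% and 3.64% of tested genes. They were Ndufb5 (1.54 ± 0.44, edgeR adjusted p = 0.044) and Ndufa10 (1.49 ± 0.43, adjusted p = 0.047), with the levels given above. Both calls ended when any 1 of the 4 saline libraries or of the 3 B7hi HDM libraries was left out. The count was then 0, except that 1 other member was called without B7low saline 2. It was 1 without B7low HDM 1 or B7low HDM 3, and 3 without B7low HDM 2. Over all tested genes 306 of 10533 were called higher, 80 of 11678 without B7hi saline 1 and 258 of 10075 without B7low HDM 2. At an unadjusted p under 0.05 there were 18 members higher and 0 lower, against 11.4% and 9.84% of tested genes. Across the 74 members 65 were positive (51.4% of all tested genes), with a median of 0.44 against 0.03 for all tested genes. The ranges of the 2 B7hi and 2 B7low libraries did not overlap in 44 members with B7hi higher (59.5%) and in 4 with B7low higher, against 28.5% and 23.4% of tested genes.

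With HDM, 0 members were called in either direction, against 0.693% of tested genes higher and 2.15% lower. At an unadjusted p under 0.05 edgeR gave 13 higher and 0 lower, against 5.7% and 7.91% of tested genes. DESeq2 and limma-voom also called 0 members at an adjusted p under 0.05. Over all genes DESeq2 called 154 higher and 322 lower of 19786, and limma-voom 130 and 224 of 10533. Among the members the lowest adjusted p by edgeR was 0.15. Their median was again 0.44, with 66 of 74 positive against 52% of tested genes. In 17 members (23%) all B7hi HDM libraries exceeded the B7low HDM libraries and in 1 they were all lower, against 9.76% and 10.7% of tested genes.

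Both contrasts were positive in 59 of 74 members (79.7%), against 34.1% of tested genes. Both were negative in 2, Atp5s and Ndufa5, against 30.8%. They use different libraries. Across the 74 genes, the sizes of the difference in the 2 challenges had a Pearson r of 0.09 and a Spearman rho of 0.19. Over all tested genes these were 0.43 and 0.36. Genes share libraries and are not independent replicates. Error in the single estimates can lower such correlations, and its part was not tested. Complex IV had a median of 0.38 with saline and 0.65 with HDM, and complex V 0.56 and 0.49.

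**Figure D4:**
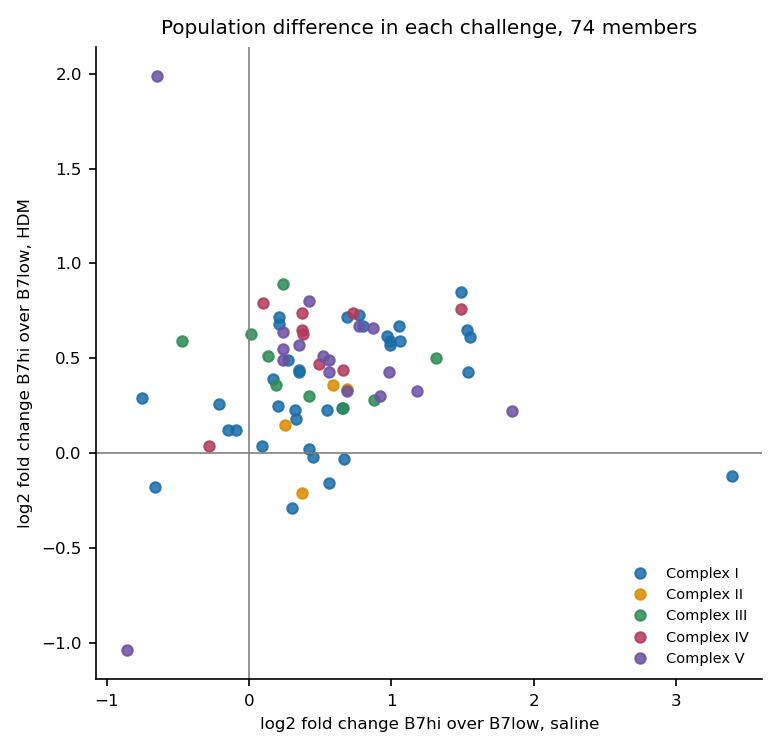
Log2 fold change of B7hi over B7low with saline (horizontal axis) and with HDM (vertical axis) for the 74 tested members, coloured by complex. The upper right quadrant holds 59 points and the lower left 2.

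The second question was whether HDM changed these genes within a population. In B7hi, 0 of 74 members were called in either direction by edgeR, against 0.00949% of tested genes higher and 0% lower, and 0 members had an unadjusted p under 0.05, against 2.77% of tested genes higher and 1.36% lower. DESeq2 and limma-voom called 0 members as well. Over all genes DESeq2 called 52 higher and 1 lower of 19786, and limma-voom 10 and 1 of 10533. The members' median log2 fold change of HDM over saline was 0.01, with 38 of 74 positive against 51.6%. Their summed level was 0.988 times that with saline. Without B7hi HDM 3 only 20 of 73 were positive, with a median of −0.12, and with library size in place of TMM 19 of 74, with a median of −0.14 for the members and for all tested genes. For 44 members the 95% interval lay within −1 to 1, so a doubling was outside the interval for these, and the median half-width of the intervals was 0.74. By complex the medians ran from −0.04 (complex II) to 0.07 (complex V).

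In B7low, 0 members were called by edgeR, against 0.00949% higher and 0% lower. At an unadjusted p under 0.05 there were 3 higher and 1 lower, against 6.11% and 2.96% of tested genes. DESeq2 and limma-voom called 0 members. Over all genes DESeq2 called 19 higher and 1 lower of 19786, and limma-voom 0 and 0 of 10533. The members' median was 0.06, with 47 of 74 positive against 52%, and their summed level 1.10 times that with saline. The 3 higher genes were Ndufc1, at 3.33 ± 1.17 (adjusted p = 0.42), Ndufb5, at 1.12 ± 0.42 (adjusted p = 0.44), and Cyc1, at 1.04 ± 0.39 (adjusted p = 0.44). The lower gene was Uqcr11, a small complex III subunit, at −1.02 ± 0.47 (adjusted p = 0.54). The intervals were wide, with a median half-width of 0.83, and 26 members lay within −1 to 1.

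**Figure D5:**
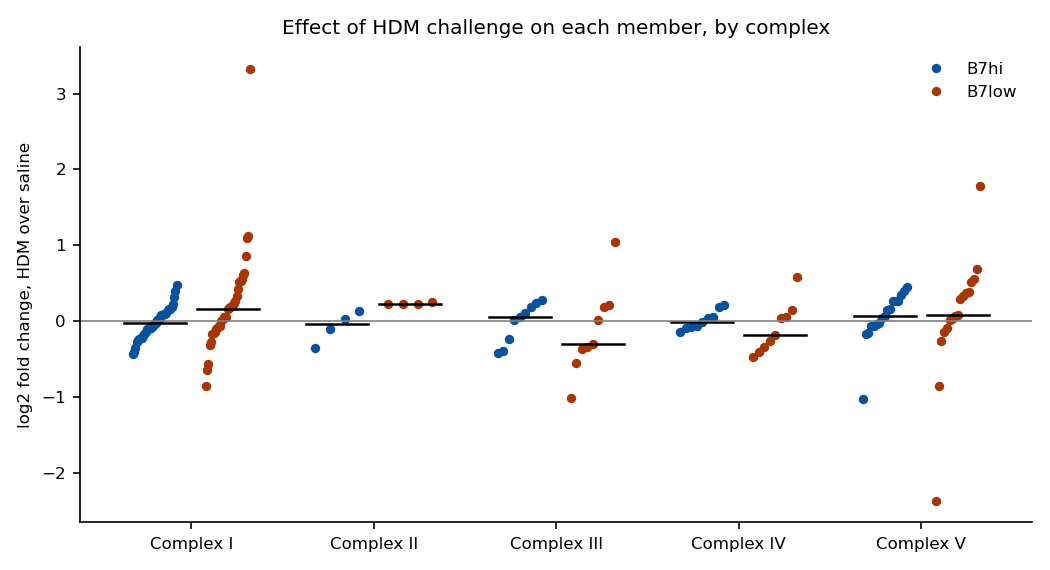
Log2 fold change of HDM over saline (vertical axis) for each tested member (points) by complex (horizontal axis), in B7hi (blue) and B7low (red), with black bars at medians. Points centre near 0 in both populations and spread more widely in B7low, where the outlying point of complex I is Ndufc1 at 3.33.

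The difference between the HDM effects, tested as an interaction, was called for 0 members and 0% of tested genes in either direction. At an unadjusted p under 0.05 there were 0 members higher and 1 lower, against 3.76% and 4.79% of tested genes. The 1 was Ndufc1, at −3.52 ± 1.40 (edgeR adjusted p = 0.52), and it rests on the B7low saline libraries with 0 and 1 count. DESeq2 and limma-voom called 0 members. Over all genes DESeq2 called 21 higher and 19 lower of 19786, and limma-voom 0 and 0 of 10533. The members' median was −0.10, with 30 of 74 positive against 47.9%, and it was 0.15 without B7low HDM 2.

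Levels of different genes were compared per kilobase of exon, as mean TMM-scaled CPM over the 10 libraries. Atp5b led at 257 CPM per kb, followed by Cox8a at 227, Atp5f1 at 213, Cox7a2l at 196 and Uqcrh at 175. The highest in complex I were Ndufa4, at 149 CPM per kb, and Ndufa6, at 120. Ndufa4 is named for complex I but is found in complex IV. In complex II, Sdhb had 112 and Sdha 86.7 CPM per kb. Steps between neighbours in this order were not tested. When the tested members were split by mean CPM, without regard to length, the 37 with more CPM had a median population log2 fold change of 0.50, and the other 37 had 0.39.

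Among tissue isoforms, the ubiquitous form carried nearly all counts. Cox6a1 had 679 counts over the 10 libraries and the muscle form Cox6a2 had 3. Cox7a2 had 645 and the muscle form Cox7a1 had 4, and Cox7b had 567 and Cox7b2 had 2. Cox8b, Cox8c and Ndufa4l2 were at 0 counts in every library, where 3 counts would be 1.57 to 5.87 CPM. Cox6b2, known from testis, had 41 counts and fell just outside the minimum, with 12 and 8 counts in B7hi saline, 1 and 1 in B7low saline, 2, 2 and 7 in B7hi HDM and 0, 6 and 2 in B7low HDM. Just inside it were Atp5k with 52 and Cox7c with 58 counts, and the next outside was Ndufs5 with 15.

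Other mitochondrial gene groups were placed beside the members in the averaged population contrast, where 5.80% of all tested genes were called higher and 6.08% lower. Of the 6 tested OXPHOS genes outside the symbol rule, Cycs, which encodes the cytochrome c that carries electrons from complex III to IV, was called higher (0.78 ± 0.23, adjusted p = 0.038), and all 6 were positive. Assembly factors, which build the complexes but are not part of them, had 0 of 38 called higher and 1 lower, Atpaf1 (−0.89 ± 0.28, adjusted p = 0.048), with a median of 0.25. The 77 mitochondrial ribosome genes had 0 calls in either direction and a median of 0.32, with 71 positive. At an unadjusted p under 0.05 edgeR gave 6 of these 77 higher and 0 lower, against 13.6% and 12.1% of all tested genes.

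The counts of this paragraph stand against 5.80% of all tested genes called higher and 6.08% lower. Of 24 tested genes of the tricarboxylic acid cycle and pyruvate dehydrogenase, 2 were higher and 1 lower. Cs, citrate synthase, was at 0.91 ± 0.22 (adjusted p = 0.011), Idh3a at 0.92 ± 0.28 (adjusted p = 0.042), and Pdk1, a kinase that inhibits pyruvate dehydrogenase, at −2.30 ± 0.62 (adjusted p = 0.023). Carriers and outer membrane genes had 4 of 22 higher, among them the porin gene Vdac3 (0.80 ± 0.18, adjusted p = 0.0093), and 0 lower. Fatty acid oxidation had 1 of 22 higher, Acadl (0.58 ± 0.18, adjusted p = 0.046). Regulators of mitochondrial biogenesis had 0 of 17 higher and 1 lower, Polg, the mitochondrial DNA polymerase (−1.78 ± 0.36, adjusted p = 0.0048).

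Of 22 tested genes of glycolysis 5 were called higher in B7hi and 6 lower, where 5.80% and 6.08% of all tested genes were called. The median of these 22 was 0.44, and their difference from the members was not tested. The lactate transporter gene Slc16a1 (−2.32 ± 0.26, adjusted p = 1.9e-05) and the glucose transporter gene Slc2a1 (−2.18 ± 0.37, adjusted p = 0.0011) were lower. Higher were Eno1 (1.47 ± 0.35, adjusted p = 0.012) and Hk2 (1.42 ± 0.35, adjusted p = 0.013), whereas the enolase isoform Eno2 was lower (−2.49 ± 0.48, adjusted p = 0.0026).

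Several measures of the libraries moved with the population difference. Cytosolic ribosomal protein genes were also higher in B7hi, with 66 of 82 called and a median of 0.92, against 5.80% of all tested genes called higher. Short genes in general tended to be higher: other tested genes with under 1000 bp of exon had a median of 0.34 and those over 4000 bp a median of −0.09. Members with under 1000 bp had a median of 0.45, and those of 1000 to 2000 bp had 0.48, where other genes had 0.19. At 2000 to 4000 bp the 8 members had 0.51 and other genes 0.07. The ribosomal RNA precursor symbol Rn45s took 19.7% to 28.9% of counts, most in the B7low saline libraries. Without it the members summed to 7277 to 10130 CPM in B7hi and 5435 to 7654 CPM in B7low, with 1 B7low library above the lowest B7hi library. Malat1, a long noncoding RNA kept in the nucleus, was at 2652 to 3584 CPM in B7hi and 3507 to 6137 CPM in B7low, highest in both B7low saline libraries. Another nuclear RNA, Kcnq1ot1, was at 806.3 to 12130 CPM, highest in B7hi HDM 2. Without that library 9 members were called higher in the averaged contrast, against 467 of 10267 tested genes. They were not the same 9, since Ndufa6 and Atp5g3 lost their calls. The part of transcript length, nuclear RNA, RNA quality and depth in the members' difference was not tested.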

How the data were processed

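SmartSeq2 libraries from 10 mast cell samples were sequenced as paired reads of 25 nt, per the labels' protocols. The deposited table holds raw counts, whole numbers per gene symbol. Per the submitters' processing notes the tools were DESeq2, Cufflinks 2.2.1 and TopHat2 2.0.10, and the build mm10, with no role for each. For the counting step and its annotation, the sources used here give nothing. TMM scaling and a robust quasi-likelihood model in edgeR 4.0.16 (under R 4.3.3) were applied after filterByExpr (10533 genes), with 1 mean per group over all 10 libraries and two-sided tests of 6 contrasts. Each SE was taken as log2 fold change divided by √F. Alternatives used DESeq2 1.42.0 and limma-voom (limma 3.58.1), other filters, and fewer libraries. The script was tested on simulated data. A true 2-fold change was called for 0% of 100 changed genes with saline, 9% with HDM and 29% in the averaged contrast. For a 4-fold change these were 50%, 77% and 86%. Of 10333 unchanged genes 6, 3 and 5 were called. Coordinates and exon lengths come from GENCODE M21 (GRCm38, called mm10), where 74 of 75 members matched 1 gene, and promoters from RefSeq. Libraries of a group differed from each other by more than sampling noise (chi-square over degrees of freedom 6.38 to 10.5). None was treated as a duplicate, but with amplified reads such an excess cannot show whether libraries are technical duplicates. The 95% intervals come from the same fit and carry the spread between libraries, whereas the limit of 3 counts covers counting error only, since amplified reads are not independent molecules. Members and lists were chosen with earlier results of these data known. Named genes are those called in any contrast, the highest and lowest of each complex, a fixed set of core subunits, the isoform families, the 3 highest per kb in each complex, those nearest the minimum, and up to 3 of each other list with the smallest p. Eno1 and Hk2 were named beyond that rule, after their values were seen. A gene that the rule names is not reported here.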

Additional observations from a re-analysis of the deposited data

How the results depend on the processing

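The members' median log2 fold change in the averaged population contrast was positive in all 18 alternatives, 0.40 to 0.59, and 0 members were called lower in it. The number called higher there was 9, against 611 of 10533 tested genes. With library size alone in place of TMM it was 21, against 888 of 10533, and with limma-voom 5, against 428 of 10533. It was 5 without both B7low saline 2 and B7hi HDM 2, against 465 of 10896. When 1 library was left out it was 3 to 11. Without a count filter it was 13, against 839 of 19786. With saline the count was 2, against 306 of 10533 tested genes. Brackets give all tested genes called higher. The count became 0 with DESeq2 size factors (240 of 10533), limma-voom (144 of 10533) or only the groups compared (101 of 8311). It was 11 with library size (655 of 10533) and 7 without a count filter (606 of 19786). Without both B7low saline 2 and B7hi HDM 2 it was 1 (191 of 10896), and 0 to 3 when 1 library was left out. Library size alone moved the median of all genes with saline from 0.03 to 0.30 and that of the members from 0.44 to 0.71. The members' interaction median of −0.10 was −0.39 with library size (16 of 74 positive, against 30) and ran from −0.19 to 0.15 when 1 library was left out. The ratio of summed levels with saline, B7hi to B7low, went from 1.48 to 1.79 with library size for all members and from 1.63 to 1.97 for complex V, more than the spread between the saline libraries; with DESeq2 size factors these were 1.40 and 1.54. Averaged over both challenges the ratio for all members was 1.48 with library size and 1.35 with DESeq2 size factors, against 1.39.

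Same-numbered B7hi and B7low libraries did not deviate together (correlations of −0.11 to 0.04). With so few libraries per group, these correlations cannot decide whether the numbers mark pairs, and the labels do not say. With a replicate block, 0 members were called with saline and 6, all higher, in the averaged contrast. Over all tested genes 296 and 559 of 10533 were then called higher. Depth limits the members near the minimum, such as Ndufc1 and Atp5k.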
